A study of Bos taurus with 44 samples.

Results

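The genes described here encode the core machinery and the main regulators of pre-mRNA splicing. They were taken by symbol: every gene on the array whose symbol starts with HNRNP or SNRP, or with SRSF, SF3A, SF3B, PRPF or LSM followed by a digit, was included, with 1 probe per gene. This gave 64 of the 8073 named genes: 17 HNRNP, 10 SRSF, 9 SNRP, 8 SF3A or SF3B, 10 PRPF and 10 LSM genes. They were measured in caruncular tissue of the bovine uterus, where the placenta attaches, and in the intercaruncular tissue between these sites, on 44 arrays that each compared 2 RNA samples in different dyes. SCNT animals (somatic cell nuclear transfer, cloning from a body cell, NT in the labels) were set against CJ animals on 10 intercaruncular arrays, and AI animals (artificial insemination, IAJ in the labels) against the same CJ animals on another 10. The labels gloss CJ with the word cycle and give neither breed, age nor day of collection. These arrays held 5 SCNT, 4 AI and 5 CJ animals. AI animal 3 was on 4 of the 10 arrays of AI with CJ and each other AI animal on 2. It therefore weighs more in the fitted AI values. SCNT and AI also met directly on 4 caruncular arrays, with 2 pools per group whose number of animals the labels do not state. IVF-ET animals (in vitro fertilisation and embryo transfer, FIV in the labels) were set against a separate set of AI animals (IAT in the labels) on 10 arrays in each area, with 5 animals in a group. All 5 IVF-ET animals and 3 of the AI animals were on the arrays of both areas.

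Splicing removes introns from pre-mRNA in the spliceosome, which is built from small nuclear ribonucleoproteins (snRNPs). Each snRNP carries an RNA with a ring of Sm proteins or, for the U6 RNA, a ring of LSM proteins, and proteins of its own. SF3A and SF3B anchor the U2 snRNP at the branch point, PRPF proteins act mainly in and around the U4/U6 and U5 snRNPs, SR proteins (SRSF) mostly promote the use of the exons they bind, and hnRNPs package nascent RNA and often oppose exon use. The uterine lining of ruminants is remodelled when a conceptus signals its presence through interferon tau, and stromal, epithelial and immune cells all contribute RNA to a piece of this tissue.

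Every value is a log2 ratio of the 2 dyes, so it is a difference between samples and not a level, and the tissue's defining markers could not be checked as levels. Which dye is on top is not stated. The likely reading is Cy5 over Cy3. With it the interferon-stimulated gene ISG15 was at 4.65 and 2.90, and OXTR, the oxytocin receptor, at -3.54 and -2.71, in SCNT and AI against CJ animals, and early pregnancy in ruminants is known to move both genes this way. Those directions are therefore no finding, and under the opposite reading every sign below turns. Of the 14 animals on the arrays with CJ, AI animal 3 stood apart: its ISG15 ratio to CJ was -0.23, against 3.93 to 5.56 in the other AI animals. Where it decides a call in AI against CJ, the value without it is given too. The 2 spots of a member's probe correlated over the arrays with r of 0.315 to 0.979 (median 0.818, and 0.752 over all named genes), and PRPF19 was the 1 member under 0.5. No member lacked a value on any array.

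In intercaruncular tissue 27 of the 64 members differed between SCNT and CJ animals, 7 of them higher and 20 lower in SCNT (42.2% of members, limma with Benjamini-Hochberg adjustment over all probes at a threshold of 0.05). The share was 21.7% of all probes tested (10.4% higher and 11.3% lower) and 26.7% of named genes (11.6% higher and 15.1% lower), against 10.9% of members higher and 31.2% lower. Falls in SCNT animals included the Sm protein genes SNRPG and SNRPD1, HNRNPA3, SRSF1 and SRSF2, and rises included SRSF7, SF3A1 and SRSF5. Of the 27, 11 had a log2 difference over 0.5 in size. Over all members the median difference was -0.08 and its median size 0.25, against -0.01 and 0.14 over named genes. At an unadjusted p under 0.05, 39 members passed (60.9%, against 31.6% of probes). The count depended on single animals: 16 members were called without CJ animal 4 and 36 without AI animal 3, which enters this comparison through the shared error estimate. The share of all probes called in those fits is not given here, so the change is not read as particular to the members.

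AI animals differed from CJ animals in 21 members, 6 higher and 15 lower in AI (32.8% of members, limma, same adjustment). Of all probes 15% were called in this comparison (6.92% higher and 8.08% lower), and of named genes 18.9% (8.1% higher and 10.8% lower), against 9.38% of members higher and 23.4% lower. The log2 difference was over 0.5 in size in 6 of the 21, the median over members was -0.06 and its median size 0.25, against 0.00 and 0.12 over named genes. At an unadjusted p under 0.05, 37 members passed (57.8%, against 24.9% of probes). Without AI animal 3, 25 were called, 11 higher and 14 lower. Without AI animal 2, CJ animal 4 or CJ animal 5, 14 were called, and without CJ animal 3, 28. Probes called over the whole array fell too, from 2074 to 1286, 1322 and 1312 in the first 3 of these fits. No such count is given for the fits without AI animal 3 or CJ animal 3. CJ animal 3 met only AI animal 3 in this comparison. Leaving it out removes arrays of AI animal 3, so those fits are not separate checks. Both comparisons use the same CJ animals, so their values stand side by side below and are not independent of each other.

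**Figure D1:**
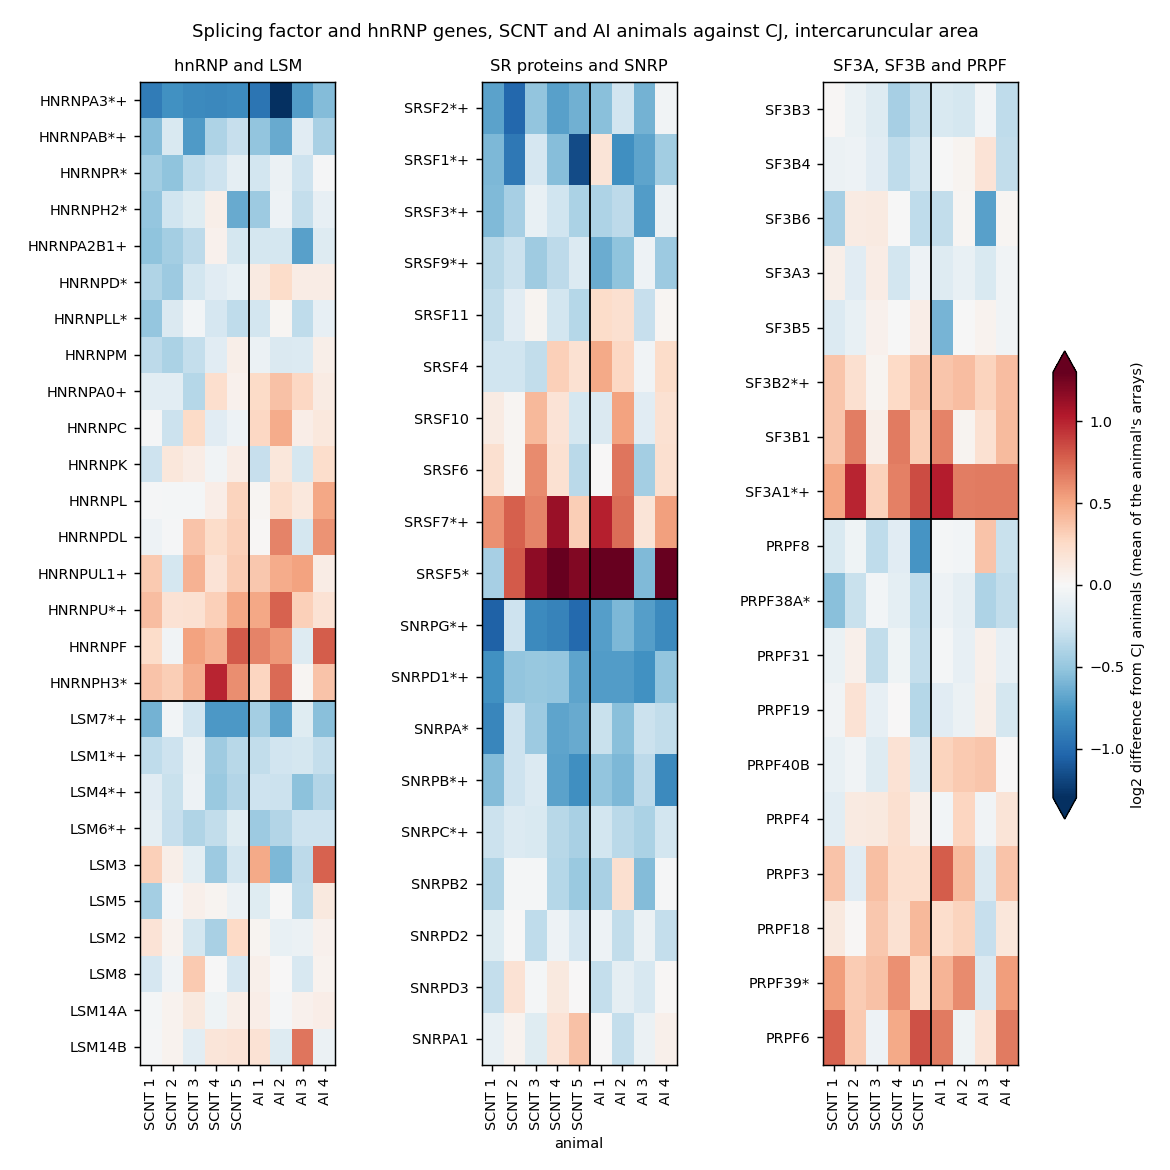
Difference of each SCNT and each AI animal from the CJ animals it was hybridised with, in log2 units (mean of the animal's arrays), for all 64 members, sorted within each family by the SCNT difference; * marks members called in SCNT against CJ and + members called in AI against CJ. The rows of SNRPG, SNRPD1, HNRNPA3 and SRSF2 are below 0 (blue) in all 9 animals, and those of SF3A1, SF3B2, SRSF7 and HNRNPU are above 0 (red) in all 9, SF3B2 faintly so in SCNT animal 3; values beyond the ends of the colour scale take the end colours.

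Of the 9 SNRP genes 5 fell and 0 rose in SCNT (55.6% called, median -0.29), and 4 fell and 0 rose in AI (44.4% called, median -0.32). Of named genes 26.7% were called in SCNT and 18.9% in AI. SNRPG, a protein of the Sm ring, was at -1.05, -0.27, -0.83, -0.87 and -1.01 in the 5 SCNT animals and at -0.72, -0.58, -0.72 and -0.82 in the 4 AI animals. All 9 animals lay below CJ, and SCNT animal 2 was the nearest to it. SNRPG fell 1.75-fold in SCNT (-0.81 ± 0.09, SE, adjusted p = 3.11e-06 by limma) and 1.64-fold in AI (-0.71 ± 0.10, adjusted p = 4.11e-05). SNRPD1, another Sm ring protein, was at -0.78, -0.51, -0.50, -0.50 and -0.69 in SCNT animals and at -0.72, -0.73, -0.79 and -0.51 in AI animals. Its values were close together in every animal. SNRPD1 fell 1.51-fold in SCNT (-0.60 ± 0.06, adjusted p = 1.11e-06) and 1.62-fold in AI (-0.70 ± 0.07, adjusted p = 5.37e-07), the smallest adjusted p of any member in that comparison, and on 10 of 10 arrays in each.

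SNRPB, the Sm ring protein that exists in the B and B′ forms, was at -0.57, -0.27, -0.18, -0.70 and -0.79 in SCNT animals and at -0.51, -0.59, -0.34 and -0.83 in AI animals. It fell by 0.50 ± 0.10 in SCNT (adjusted p = 0.000547) and by 0.53 ± 0.10 in AI (adjusted p = 0.000699, limma). All animals were below CJ, with overlapping ranges in the 2 groups. SNRPC, a zinc-finger protein of the U1 snRNP that recognises the 5′ splice site, fell by 0.29 ± 0.06 in SCNT (adjusted p = 0.00137) and by 0.32 ± 0.06 in AI (adjusted p = 0.00123), with all 9 animals between -0.42 and -0.18. SNRPA, the U1 protein that binds the stem loop of U1 RNA, was at -0.85, -0.27, -0.47, -0.68 and -0.66 in SCNT animals and at -0.29, -0.54, -0.28 and -0.32 in AI animals. Again no animal lay above CJ. SNRPA fell in SCNT (-0.59 ± 0.12, adjusted p = 0.000881), and in AI its value was -0.35 ± 0.12 (adjusted p = 0.0593). The other 4 SNRP genes were not called in either comparison. They were SNRPD2 and SNRPD3 of the Sm ring, at -0.15 and 0.00 in SCNT and -0.18 and -0.16 in AI, and SNRPB2 and SNRPA1 of the U2 snRNP, at -0.26 and 0.07 in SCNT and -0.25 and -0.08 in AI. Without AI animal 3, SNRPD2 was called in AI (-0.23 ± 0.08, adjusted p = 0.0359, limma). In AI 9 of the 9 SNRP genes lay below 0, and in SCNT 8.

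Of the 8 SF3 genes 2 rose and 0 fell in each group. The 25% called lay near the 26.7% of named genes called in SCNT and above the 18.9% in AI, and the medians over the family were -0.04 in SCNT and -0.06 in AI. SF3A1, a subunit that joins SF3A to the U2 snRNP, was at 0.52, 0.99, 0.30, 0.65 and 0.85 in SCNT animals and at 1.02, 0.66, 0.68 and 0.67 in AI animals. No animal was at or below CJ, and AI animal 1 was the highest. SF3A1 rose 1.58-fold in SCNT (0.66 ± 0.11, adjusted p = 9.95e-05) and 1.68-fold in AI (0.75 ± 0.11, adjusted p = 8.1e-05, limma), on 10 of 10 arrays in both. SF3B2, a subunit of SF3B, was at 0.36, 0.21, 0.03, 0.26 and 0.38 in SCNT animals and at 0.36, 0.40, 0.29 and 0.41 in AI animals. SCNT animal 3 was level with CJ and the rest lay above. SF3B2 rose by 0.25 ± 0.07 in SCNT (adjusted p = 0.0111) and by 0.35 ± 0.07 in AI (adjusted p = 0.0014). SF3B1, the subunit that clasps the branch-point helix, was above 0 in all 9 animals but spread widely (0.42 ± 0.17 in SCNT, adjusted p = 0.0931, and 0.30 ± 0.18 in AI, adjusted p = 0.344). Its second probe gave 0.12 and 0.25 and was not called either. SF3A3, SF3B3, SF3B4, SF3B5 and SF3B6 lay between -0.20 and -0.03 in SCNT and between -0.31 and 0.00 in AI, none called. The 2 probes of SF3B5, a small subunit of SF3B, disagreed: the second was called lower at -0.53 ± 0.11 in SCNT (adjusted p = 0.000937) and -0.50 ± 0.11 in AI (adjusted p = 0.00307), while the one that stands for the gene gave -0.03 and -0.12.

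Of the 10 PRPF genes 1 rose and 1 fell in SCNT (20% called), and 0 were called in AI. Both lay below the 26.7% of named genes called in SCNT and the 18.9% in AI. In AI 4 of the 37 members at an unadjusted p under 0.05 were PRPF genes. PRPF39, which in yeast belongs to the U1 snRNP, was at 0.55, 0.33, 0.38, 0.59 and 0.25 in SCNT animals and at 0.44, 0.61, -0.19 and 0.54 in AI animals. AI animal 3 alone lay below CJ. PRPF39 rose by 0.42 ± 0.12 in SCNT (adjusted p = 0.0147) and was at 0.28 ± 0.12 in AI (adjusted p = 0.163, limma). Without AI animal 3 its value in AI was 0.53 ± 0.11 (adjusted p = 0.0023). PRPF38A, which joins the spliceosome before its activation, fell by 0.26 ± 0.09 in SCNT (adjusted p = 0.0337) and was at -0.25 ± 0.09 in AI (adjusted p = 0.0635). Its call was lost in 8 of 14 fits without 1 animal. PRPF6, which links the U5 and U4/U6 snRNPs, had a larger difference that was not called (0.47 ± 0.17 in SCNT, adjusted p = 0.0568, and 0.34 ± 0.18 in AI, adjusted p = 0.258). Its animals ran from -0.06 to 0.82 in SCNT and from -0.06 to 0.68 in AI. PRPF8, the scaffold at the catalytic centre, was at -0.30 ± 0.12 in SCNT and 0.05 ± 0.13 in AI. AI animal 3 was at 0.37, and the other AI animals lay between -0.29 and -0.02. Without AI animal 3 PRPF8 was at -0.12 ± 0.14 in AI (adjusted p = 0.709, limma). In that fit it was called lower in SCNT (-0.30 ± 0.10, adjusted p = 0.0419).

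Of the 10 LSM genes 4 fell and 0 rose in SCNT, and 4 fell and 0 rose in AI (40.0% called in each), both times LSM1, LSM4, LSM6 and LSM7. The shares of named genes called were 26.7% in SCNT and 18.9% in AI. LSM4, LSM6 and LSM7 sit in both LSM rings, the nuclear one on U6 RNA and the cytoplasmic one that promotes mRNA decapping, and LSM1 is particular to the cytoplasmic ring. LSM7 was at -0.61, -0.04, -0.24, -0.74 and -0.75 in SCNT animals and at -0.44, -0.68, -0.16 and -0.55 in AI animals, below CJ in each but close to it in SCNT animal 2. It fell by 0.48 ± 0.13 in SCNT (adjusted p = 0.00942) and by 0.42 ± 0.13 in AI (adjusted p = 0.037, limma). LSM4 was at -0.15, -0.29, -0.07, -0.48 and -0.38 in SCNT animals and at -0.27, -0.28, -0.54 and -0.38 in AI animals. LSM4 fell by 0.27 ± 0.08 in SCNT (adjusted p = 0.0126) and by 0.39 ± 0.08 in AI (adjusted p = 0.00174). LSM6 fell by 0.26 ± 0.08 and 0.33 ± 0.08 and LSM1 by 0.30 ± 0.08 and 0.27 ± 0.08 in SCNT and AI, with every animal of both groups below CJ for both genes. Without 1 animal, the call in AI was lost in 8 of 14 fits for LSM7 and in 7 for LSM1, and the call in SCNT in 6 for LSM6 and in 5 for LSM4. LSM8, which replaces LSM1 in the nuclear ring, was at -0.03 in SCNT and -0.05 in AI. LSM2, LSM3 and LSM5, the remaining ring members, lay between -0.09 and -0.03 in SCNT and between -0.13 and 0.03 in AI, and LSM14A and LSM14B, which act in storage and repression of mRNA in the cytoplasm, between 0.03 and 0.24 over both comparisons. None of these was called.

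Of the 10 SR protein genes 2 rose and 4 fell in SCNT (60.0% called), and 1 rose and 4 fell in AI (50% called). Over named genes 26.7% were called in SCNT and 18.9% in AI. SRSF2, which binds exonic enhancers, was at -0.70, -1.03, -0.52, -0.70 and -0.63 in SCNT animals and at -0.54, -0.25, -0.61 and -0.05 in AI animals. SCNT animals lay further below CJ than most AI animals, and their ranges overlapped. SRSF2 fell 1.64-fold in SCNT (-0.71 ± 0.09, adjusted p = 1.27e-05) and 1.32-fold in AI (-0.40 ± 0.10, adjusted p = 0.00686, limma). Without AI animal 3 its value in AI was -0.28 ± 0.11 (adjusted p = 0.0778). Their difference, tested through CJ, was -0.32 ± 0.12 (adjusted p = 0.496). SRSF1, the SR protein first purified as a splicing factor, was at -0.58, -0.93, -0.22, -0.55 and -1.16 in SCNT animals and at 0.17, -0.80, -0.69 and -0.45 in AI animals. AI animal 1 lay above CJ, unlike the other 8 animals. SRSF1 fell by 0.69 ± 0.15 in SCNT (adjusted p = 0.00187, 10 of 10 arrays) and by 0.48 ± 0.16 in AI (adjusted p = 0.0421, 7 of 10 arrays). The call in AI was lost in 8 of 14 fits without 1 animal, among them that without AI animal 3 (-0.36 ± 0.17, adjusted p = 0.182), and in 3 of 9 other settings, among them with no dye term. SRSF3, the smallest SR protein, which also acts in mRNA export, fell by 0.35 ± 0.09 in SCNT (adjusted p = 0.00591) and by 0.43 ± 0.09 in AI (adjusted p = 0.00238). SRSF9 fell by 0.32 ± 0.08 and 0.38 ± 0.08 (adjusted p = 0.00392 and 0.00231), but its second probe gave -0.01 in SCNT and -0.09 in AI and was not called.

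SRSF7, an SR protein with a zinc knuckle that also works in mRNA export, went the other way. It was at 0.59, 0.77, 0.64, 1.12 and 0.32 in SCNT animals and at 1.01, 0.72, 0.16 and 0.54 in AI animals. All 9 animals lay above CJ, AI animal 3 the least. SRSF7 rose 1.61-fold in SCNT (0.69 ± 0.12, adjusted p = 0.000166) and 1.46-fold in AI (0.54 ± 0.12, adjusted p = 0.00322, limma). SRSF5 had the largest fitted difference of any member in both comparisons and the largest error. It was at -0.44, 0.80, 1.17, 2.36 and 1.20 in SCNT animals and at 1.51, 1.49, -0.57 and 2.16 in AI animals. SCNT animal 1 and AI animal 3 lay below CJ, and the other 7 animals at least 0.80 above it. SRSF5 rose 2.03-fold in SCNT (1.02 ± 0.35, adjusted p = 0.0403, 8 of 10 arrays), and in AI its value was 0.90 ± 0.36 (adjusted p = 0.107, 7 of 10 arrays). Without AI animal 3, SRSF5 was called in AI at 1.72 ± 0.35 (adjusted p = 0.00162). The call in SCNT was lost in 9 of 14 fits without 1 animal: without SCNT animal 4 the value was 0.72 (adjusted p = 0.208), without CJ animal 1 it was 0.72 (adjusted p = 0.262), while without SCNT animal 1 it was 1.33 (adjusted p = 0.0127). SRSF4, SRSF6, SRSF10 and SRSF11 lay between -0.21 and 0.14 in SCNT and between -0.01 and 0.20 in AI, none called.

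**Figure D2:**
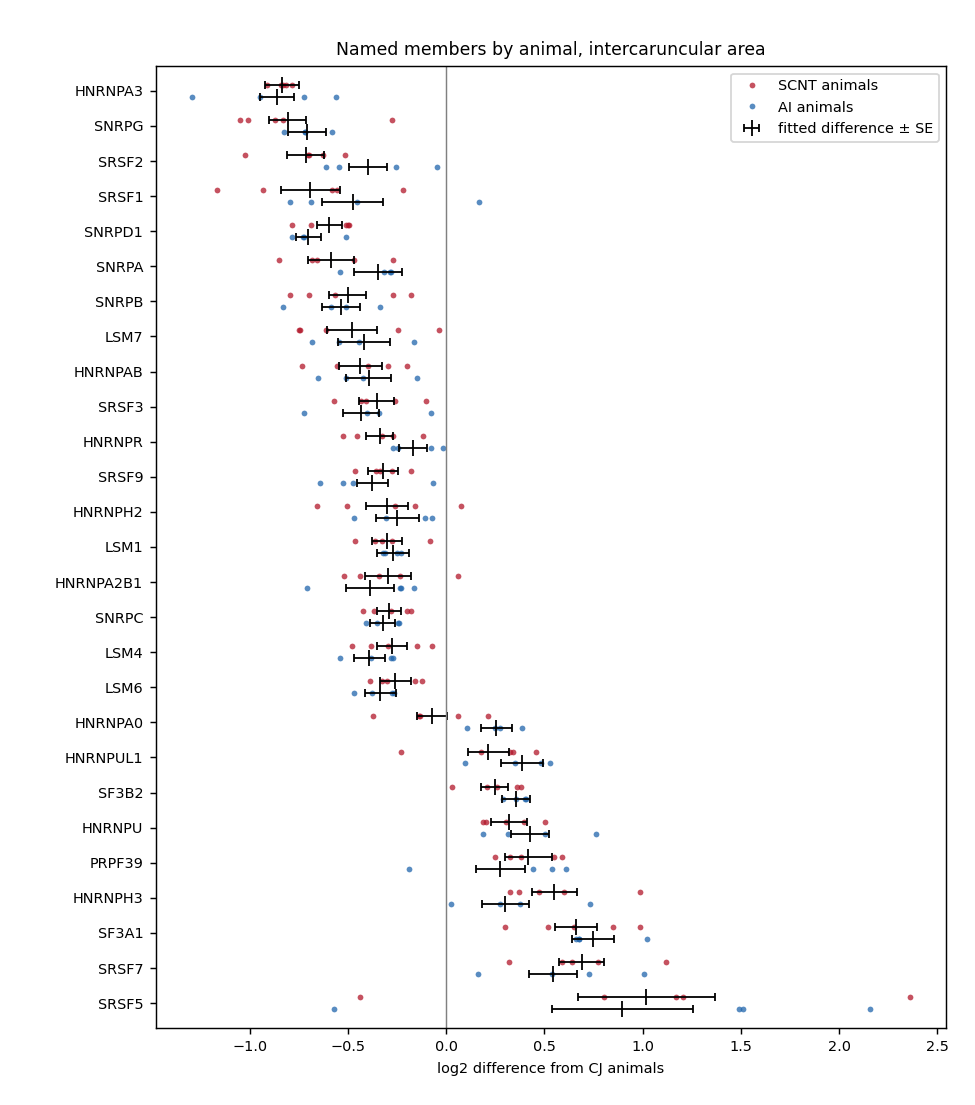
Log2 difference from CJ animals of 27 members called in at least 1 of the 2 comparisons, up to 15 rises and 15 falls in each, largest first; points are single SCNT and AI animals, and crosses with bars the fitted difference ± SE. HNRNPA3 lies between -0.91 and -0.78 in all SCNT animals, while SRSF5 runs from -0.44 to 2.36.

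Of the 17 hnRNP genes 2 rose and 6 fell in SCNT (47.1% called), and 3 rose and 3 fell in AI (35.3% called). Among named genes 26.7% were called in SCNT and 18.9% in AI. HNRNPA3, an RNA-binding protein of the A/B group, was at -0.91, -0.78, -0.83, -0.84 and -0.82 in SCNT animals and at -0.95, -1.29, -0.72 and -0.56 in AI animals. The SCNT animals lay within a narrow band, the AI animals on both sides of it. HNRNPA3 fell 1.78-fold in SCNT (-0.84 ± 0.08, adjusted p = 6.85e-07, the smallest of any member there) and 1.81-fold in AI (-0.86 ± 0.09, adjusted p = 1.36e-06, limma), on 10 of 10 arrays in each. HNRNPAB, of the same group, fell by 0.44 ± 0.11 in SCNT (adjusted p = 0.00605) and by 0.39 ± 0.11 in AI (adjusted p = 0.0214). HNRNPA2B1, which also sorts RNAs for transport, fell in AI (-0.39 ± 0.12, adjusted p = 0.0348), with AI animal 3 at -0.71 and the other 3 AI animals between -0.23 and -0.16. Without AI animal 3 it was at -0.21 in AI (adjusted p = 0.294). In SCNT it was at -0.29 ± 0.12 (adjusted p = 0.0824). HNRNPR fell in SCNT by 0.34 ± 0.07 (adjusted p = 0.000997) and was at -0.17 ± 0.07 in AI (adjusted p = 0.13). HNRNPH2, which binds runs of G, fell in SCNT by 0.30 ± 0.11 (adjusted p = 0.0461), a call lost in 9 of 14 fits without 1 animal. HNRNPLL, a splicing repressor known from T cells, fell there by 0.26 ± 0.08 (adjusted p = 0.0235), and HNRNPD, also called AUF1 for its part in mRNA decay, by 0.27 ± 0.08 (adjusted p = 0.0229). Each of these 2 calls was lost in 5 of 14 such fits, and that of HNRNPAB in AI in 6.

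HNRNPU, a nuclear scaffold protein, was at 0.40, 0.19, 0.20, 0.31 and 0.50 in SCNT animals and at 0.50, 0.76, 0.31 and 0.19 in AI animals, above CJ in all 9. HNRNPU rose by 0.32 ± 0.09 in SCNT (adjusted p = 0.0159) and by 0.43 ± 0.10 in AI (adjusted p = 0.0038, limma). Its relative HNRNPUL1 rose in AI (0.39 ± 0.11, adjusted p = 0.0164, and 0.31 ± 0.12, adjusted p = 0.0879, without AI animal 3) and was at 0.21 ± 0.10 in SCNT (adjusted p = 0.163). HNRNPH3, of the group that binds runs of G, was at 0.37, 0.32, 0.47, 0.99 and 0.60 in SCNT animals and at 0.28, 0.73, 0.02 and 0.37 in AI animals. SCNT animal 4 was the highest and AI animal 3 level with CJ. HNRNPH3 rose by 0.55 ± 0.12 in SCNT (adjusted p = 0.00142) and was at 0.30 ± 0.12 in AI (adjusted p = 0.106), or 0.46 ± 0.14 (adjusted p = 0.0223) without AI animal 3. HNRNPA0, another A/B protein, was at -0.07 ± 0.08 in SCNT and rose by 0.26 ± 0.08 in AI (adjusted p = 0.0315), or was at 0.25 ± 0.10 (adjusted p = 0.0816) without AI animal 3. The difference between these values is given with the comparison of SCNT and AI. The other 6 genes HNRNPC, HNRNPDL, HNRNPF, HNRNPK, HNRNPL and HNRNPM lay between -0.23 and 0.39 in SCNT and between -0.10 and 0.37 in AI, none called.

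Nearly every animal carried the fitted signs. Of the 27 members called in SCNT against CJ, the 5 SCNT animals showed the fitted sign in 26, 27, 27, 26 and 27, and of the 21 called in AI against CJ, the 4 AI animals showed it in 20, 21, 21 and 21. These animals also chose the members, so the counts are a description. AI animal 3 was also set beside the 25 members called in AI against CJ without it. All 14 of the lower members were below CJ in AI animal 3 too (median -0.31), and 6 of the 11 higher ones were above it (median 0.02). The 5 others were SRSF5 at -0.57, HNRNPDL at -0.23, PRPF39 at -0.19, PRPF3 at -0.18 and HNRNPF at -0.17. On the arrays of AI animal 3, CJ animals 4 and 5 are shared with other AI animals. CJ animal 3 is not. AI animal 3 was singled out after its interferon genes were seen. Its counts are a description too, and the matching shares over all genes called in that fit are not given here. With AI animal 3 in the fit, HNRNPDL was at 0.18, PRPF3 at 0.27 and HNRNPF at 0.37 in AI, none called, and without it they were at 0.41, 0.53 and 0.67. HNRNPC, at 0.30, and SF3B3, at -0.25, were also called in AI in the fit without it, and not with it.

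Some cell type markers moved in the same comparisons, in which 26.7% of named genes were called in SCNT and 18.9% in AI. Of 10 stromal fibroblast markers 9 fell and 0 rose in SCNT (median -1.51, range of animal medians -2.33 to -1.03), and 5 fell and 0 rose in AI (median -0.69), where AI animal 3 had a median of 0.56 and the other 3 lay between -1.90 and -1.57. Smooth muscle markers had 5 falls and 0 rises of 9 in SCNT and 2 falls and 0 rises in AI. Epithelial markers had 6 rises and 1 fall of 12 in SCNT (median 0.41) and 2 rises and 0 falls in AI (median 0.27), with AI animal 3 at 0.25 and the others between 0.27 and 0.31. Macrophage markers rose in 3 of 9 and 4 of 9 with 0 falls, and endothelial markers had 3 rises and 1 fall of 8 in SCNT and 2 rises and 1 fall in AI. Trophoblast markers had 4 rises of 10 in SCNT and 0 in AI. Proliferation genes had 5 falls and 0 rises of 21 in SCNT (23.8% called) and 3 falls and 0 rises in AI (14.3% called), below the shares of named genes. T and NK cell markers had 1 rise of 11 in SCNT and 0 in AI, and B cell and red blood cell markers, with 4 and 3 genes, had 0 calls in both. The part of these shifts in the members' values was not tested. In bulk tissue, fewer cells of a type and less RNA per cell cannot be told apart.

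Other genes of RNA processing were counted from lists. Of 58 other snRNP and spliceosome proteins 6 rose and 2 fell in SCNT and 7 rose and 1 fell in AI, with medians of 0.00 and 0.02. The 13.8% called in each comparison lay below the 26.7% of named genes called in SCNT and the 18.9% called in AI. Among them the branch-point binding protein SF1 rose by 0.47 ± 0.09 in SCNT (adjusted p = 0.000512) and 0.50 ± 0.09 in AI (adjusted p = 0.000639), U2AF1L4, a relative of the small U2AF subunit, by 0.95 ± 0.16 and 0.76 ± 0.17, and LUC7L, a relative of a yeast U1 snRNP protein, by 0.59 ± 0.14 and 0.75 ± 0.15. RBMX, an hnRNP by its other name hnRNP G, fell by 0.42 ± 0.09 and 0.31 ± 0.09. Of 50 other splicing regulators 5 rose and 7 fell in SCNT (24.0% called), and 6 rose and 4 fell in AI (20% called), near those shares. SFPQ, a paraspeckle protein, fell by 0.79 ± 0.10 in SCNT (adjusted p = 9.95e-06) and by 0.68 ± 0.11 in AI (adjusted p = 0.000139), and SYNCRIP, a close relative of HNRNPR, by 0.60 ± 0.09 and 0.74 ± 0.09. RBM5, which regulates splicing of apoptosis genes, rose by 0.65 ± 0.13 and 0.86 ± 0.14.

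Of 20 genes for snRNP assembly and splicing kinases 3 rose and 4 fell in SCNT and 2 rose and 5 fell in AI (35.0% called in each). Of named genes 26.7% were called in SCNT and 18.9% in AI. PRMT1, the main arginine methyltransferase, which also modifies hnRNPs, fell by 0.89 ± 0.10 in SCNT (adjusted p = 2.85e-06) and by 0.68 ± 0.11 in AI (adjusted p = 0.000147). CLNS1A, which hands Sm proteins to the assembly machinery, fell by 0.39 ± 0.06 and 0.26 ± 0.07. The 2 kinases of SR proteins among the named genes differed in direction: SRPK1, a cytoplasmic one, fell by 0.33 ± 0.07 in SCNT and 0.31 ± 0.08 in AI, and CLK1, a nuclear one, rose by 0.71 ± 0.15 and 0.64 ± 0.16. Exon junction and export genes had 2 rises and 4 falls of 24 in SCNT (25% called) and 3 rises and 2 falls in AI (20.8% called). Both lay near the shares of named genes called. UPF1, a helicase of nonsense-mediated decay, was at 0.52 ± 0.10 and 0.73 ± 0.10.

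SCNT and AI animals were compared in the intercaruncular area through CJ. There 0 of 64 members were called (0.282% of all probes were, limma), and 6 members had an unadjusted p under 0.05 (9.38% of members and 7.65% of probes), all lower in SCNT. HNRNPD came nearest, at -0.39, -0.47, -0.24, -0.15 and -0.10 in SCNT animals and at 0.12, 0.24, 0.09 and 0.09 in AI animals, each against CJ. Its SCNT and AI animals did not overlap, which held for 1 of 64 members (1.56%) and for 1.85% of named genes. Its difference was -0.40 ± 0.11 (adjusted p = 0.184). HNRNPA0 was at -0.33 ± 0.10 (adjusted p = 0.27) and HNRNPC, which coats U-rich stretches of nascent RNA, at -0.28 ± 0.11 (adjusted p = 0.492). The median error of a member's difference was 0.12, so differences of the size seen against CJ for the smaller members were not resolved here, and a missed threshold does not show that the groups are alike.

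**Figure D3:**
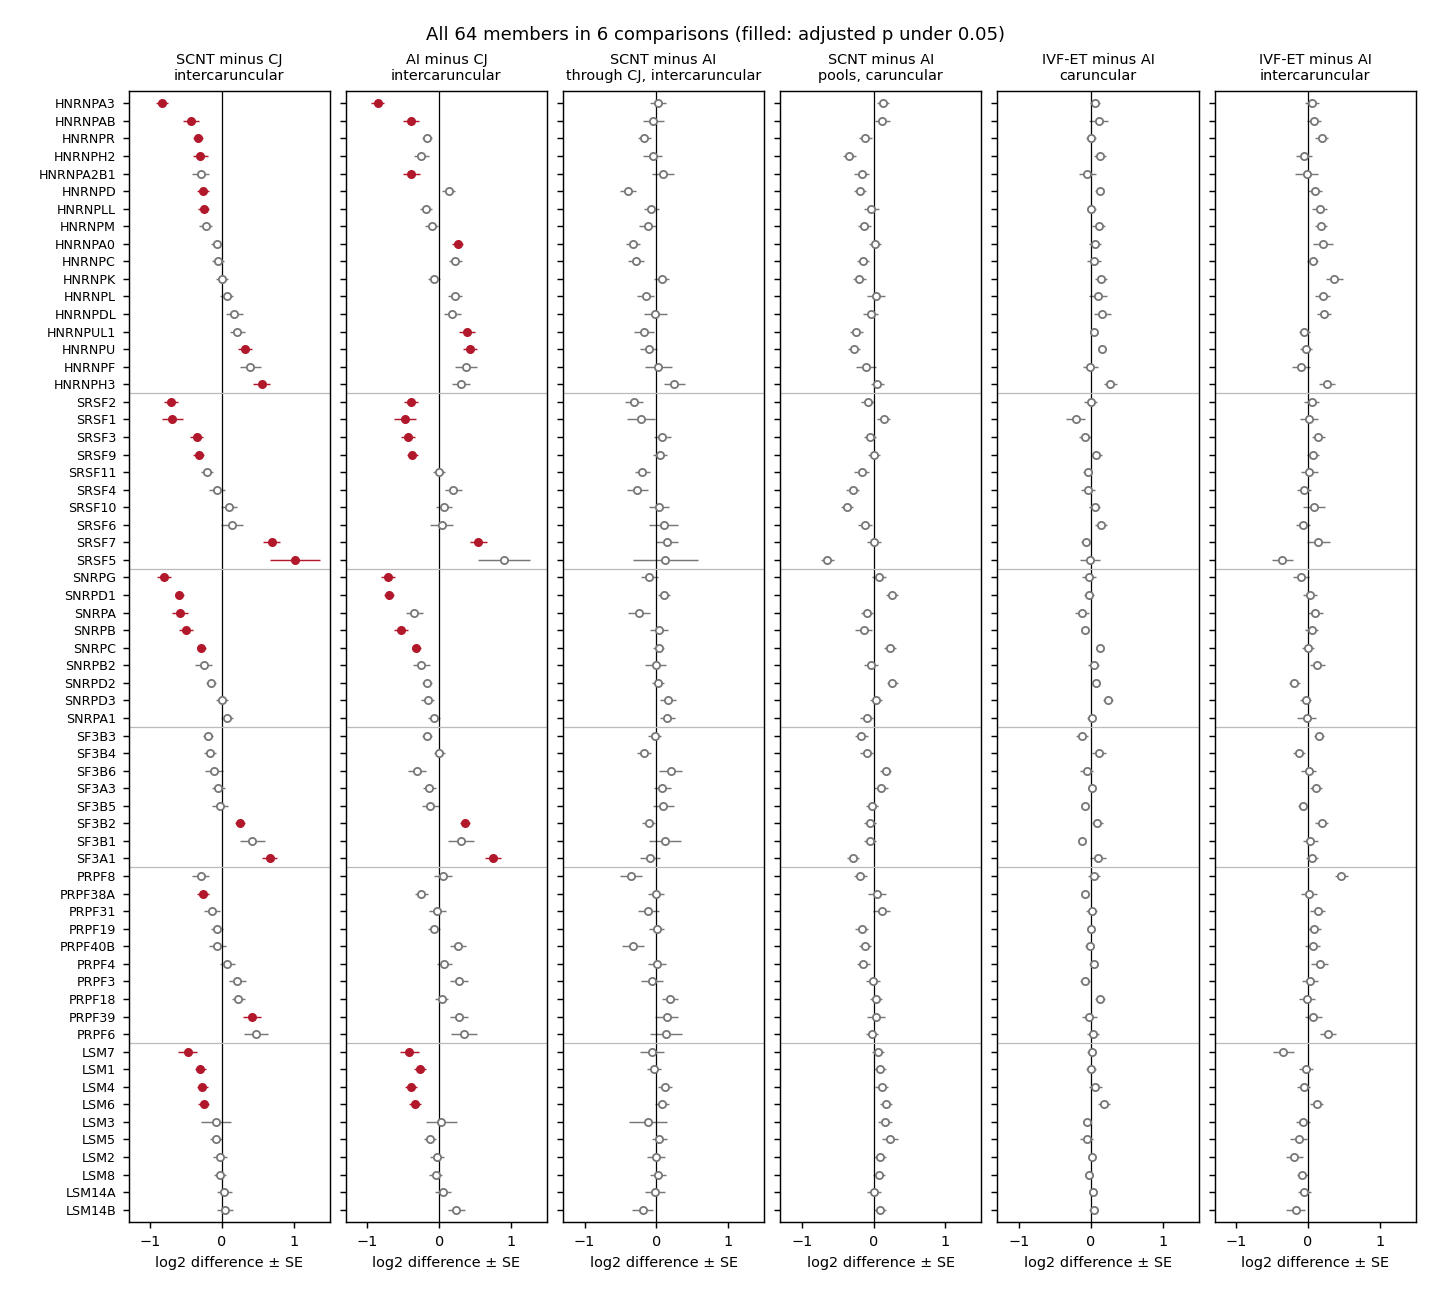
Fitted log2 difference ± SE of all 64 members in 6 comparisons, grouped by family from top to bottom (HNRNP, SRSF, SNRP, SF3, PRPF, LSM) and sorted by the SCNT minus CJ value; filled points passed an adjusted p of 0.05. The 27 and 21 filled points lie in the first 2 panels, and the other 4 hold 0.

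In the caruncular pools 0 members were called between SCNT and AI (0.0% of all probes were, limma on 2 values), and 10 had an unadjusted p under 0.05 (15.6% of members, 12.6% of probes), 3 higher and 7 lower in SCNT. SRSF5 was lowest, at -0.54 in SCNT pool 1 against AI pool 2 and -0.75 in SCNT pool 2 against AI pool 1. Both pairs lay below 0 (-0.65 ± 0.09, adjusted p = 0.127). SRSF10, a splicing repressor when dephosphorylated, was at -0.30 and -0.43 (-0.37 ± 0.09, adjusted p = 0.23), and HNRNPH2 at -0.42 and -0.27 (-0.34 ± 0.09, adjusted p = 0.26). SF3A1 and HNRNPU, higher in both groups than in CJ in the other area, were at -0.29 ± 0.08 and -0.27 ± 0.08 here. SNRPD2, SNRPD1 and SNRPC were at 0.26, 0.25 and 0.23, none called. All 10 LSM members lay above 0, by 0.00 to 0.23, against 29 of all 64 members, these 10 included. The median over named genes was 0.00, and their share above 0 is not given here. This pattern of signs was picked out after the values were seen. In SCNT pool 1 against AI pool 2, 1 of the 10 lay below 0. Pools average an unknown number of animals, so the 2 values carry little of the spread between animals. Epithelial markers had a median of -0.34, stromal ones 0.22 and trophoblast ones 0.70 in these pools, with 0 called, and their part in the members' values was not tested.

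Between IVF-ET and AI animals 0 members were called in either area. In caruncular tissue 0.0217% of all probes were called, and 6 members had an unadjusted p under 0.05 (9.38%, against 9.11% of probes). SNRPD3 was at 0.32, 0.23, 0.35, 0.30 and 0.00 in the 5 IVF-ET animals (0.24 ± 0.07, adjusted p = 0.402 by limma). Only IVF-ET animal 5 was level with its AI partners. HNRNPH3 was at 0.27 ± 0.09 (adjusted p = 0.425) and SNRPC at 0.13 ± 0.05 (adjusted p = 0.466). In intercaruncular tissue 0.00724% of probes were called, and 11 members had an unadjusted p under 0.05 (17.2%, against 9.3% of probes), 8 higher and 3 lower in IVF-ET. PRPF8 was at 0.22, 0.33, 0.80, 0.53 and 0.43 in the 5 IVF-ET animals. All lay above their AI partners, and the difference was 0.46 ± 0.09 (adjusted p = 0.266). HNRNPK, which binds C-rich RNA, was at 0.37 ± 0.11 (adjusted p = 0.452), with IVF-ET animal 1 at -0.03 and the rest between 0.22 and 0.71, and PRPF6 was at 0.28 ± 0.11 (adjusted p = 0.488).

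The difference between the 2 areas was 0 calls of 64 as well (0.00723% of probes), with the same 5 IVF-ET animals in both areas. There were 5 members at an unadjusted p under 0.05 (7.81%, against 6.51% of probes). Its smallest p belonged to SNRPD2 (0.26 ± 0.09, adjusted p = 0.747), above 0 in all 5 IVF-ET animals. PRPF8 was at -0.42 ± 0.15 and SF3B3, a large SF3B subunit, at -0.28 ± 0.10, both below 0 in all 5. The AI partners were not all the same in the 2 areas, and IVF-ET animals shared AI partners. The 5 values of a gene are therefore not independent. The fit took the 2 areas of an animal as separate. All 10 LSM members lay above 0 in the difference between the areas, by 0.01 to 0.35, against 29 of all 64 members, these 10 included. The median over named genes was -0.01, and their share above 0 is not given here. This pattern of signs, too, was picked out after the values were seen. No LSM member was called, and in each single IVF-ET animal 2 to 4 of the 10 lay below 0. Members kept to a narrower range in these loops than against CJ: -0.21 to 0.27 in caruncular and -0.36 to 0.46 in intercaruncular tissue, against -0.84 to 1.02 in SCNT and -0.86 to 0.90 in AI set against CJ. Differences were smaller in the loops over named genes as well. Their median size was 0.06 in caruncular and 0.09 in intercaruncular tissue, against 0.14 in SCNT and 0.12 in AI set against CJ.

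**Figure D4:**
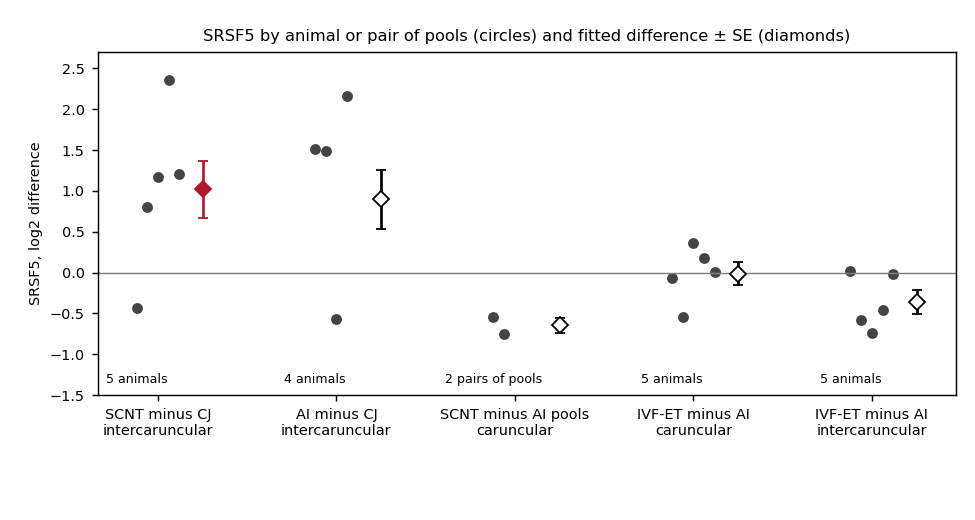
SRSF5 in 5 comparisons as log2 difference; circles are animals (or, for the pools, pairs of pools), diamonds the fitted difference ± SE, filled in red where the adjusted p was under 0.05. Animals against CJ run from -0.57 to 2.36, and IVF-ET animals against AI from -0.74 to 0.36.

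SRSF5 varied more between animals than any other member in the arrays with CJ. In the IVF-ET loops its values were -0.01 ± 0.14 in caruncular and -0.36 ± 0.15 in intercaruncular tissue (adjusted p = 0.502 in the second), where 3 IVF-ET animals lay between -0.74 and -0.45 and the other 2 at the level of AI. In the pools, which set SCNT against AI in caruncular tissue, it was the lowest member. Against CJ, in intercaruncular tissue, it was the highest. These comparisons differ in both reference group and area. In intercaruncular tissue SRSF5 in SCNT minus AI through CJ was at 0.12 ± 0.45 (adjusted p = 0.997, limma).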

How the data were processed

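The authors deposited a table of log2 dye ratios for 44 two-colour arrays, with 27648 spots each. Which steps of background correction and normalisation came before is not given in the sources used here, and neither is the dye in the numerator. RNA from frozen tissue was purified on columns, copied with oligo-dT primers and coupled to Cy3 or Cy5, per the labels' protocols. Values below -4 numbered 331, and 100.0% of them were the log2 of a ratio with 4 decimals. Array medians lay between -0.0164 and 0.0124 and array SDs between 0.221 and 0.620. Raw signals, background and array depth were not analysed here, so the number of arrays limits the precision and dim spots could not be removed.

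Each probe stood on 2 neighbouring spots, which were averaged to 13824 probes. Of these, 8645 carried 1 symbol in the platform annotation, 105 several and 5074 none, and probes with several symbols named no member. A gene with several probes was represented by the one with fewest missing values, then by the first in the table. Linear models used R 4.3.3 and limma 3.58.1, with a group difference, a dye term, 1 correlation for arrays that share an animal, moderated tests and Benjamini-Hochberg adjustment at 0.05 over all probes that had values on 80% of arrays or more. Dye-swapped arrays of the same pools were averaged, so the pools gave 2 values. Animals are numbered within each set of arrays, and an animal's value is the mean of its arrays. The method was tested on simulated data.

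Members named are those past the threshold with the same sign on at least 80% of arrays, up to 15 rises and 15 falls per comparison by size, or, where fewer than 3 passed, the 3 with the smallest p. Of each pathway list up to 4 genes with the smallest p are named. HNRNPD, HNRNPLL, PRPF38A and members without a call are named beyond this rule, after their values were seen, to account for each family. SRSF1 in AI against CJ is the 1 called member that missed the sign rule. The members, the lists and the tests were chosen with earlier results of these data known. No probe or protein sequence was used here.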

Additional observations from a re-analysis of the deposited data

Results flagged for a closer look

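In 51 groups of animals for the named members, 4 animals lay apart from the rest of their group by Dixon's criterion, which marks about 1 in 20 groups by chance. SNRPG was at -0.27 in SCNT animal 2, against -1.05 to -0.83 in the other 4 SCNT animals. SF3A1 was at 1.02 in AI animal 1, against 0.66 to 0.68 in the other 3 AI animals. HNRNPA2B1 was at -0.71 in AI animal 3, against -0.23 to -0.16 in the other 3. For SF3B3, the difference between the areas was -0.64 in IVF-ET animal 1, against -0.24 to -0.14 in the other 4 IVF-ET animals.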

How the results depend on the processing

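No member called in SCNT or AI against CJ changed the direction of that difference under any setting tried. Members without a call could: PRPF8 in AI against CJ was at 0.05, and at -0.12 without AI animal 3. Of the 27 members called in SCNT against CJ, 13 kept the call in all 14 fits without 1 animal and 12 also in all 9 other settings, among them HNRNPA3, SNRPG, SNRPD1, SRSF1, SRSF2, SRSF7 and SF3A1. Of the 21 called in AI against CJ, 13 kept it in all 14 fits and 12 in all settings.

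Leaving out 1 animal gave 16 (without CJ animal 4) to 36 (without AI animal 3) members called in SCNT against CJ, with 4 (without CJ animal 4) to 11 (without CJ animal 3) higher and 12 (without CJ animal 4) to 26 (without AI animal 3) lower. In AI against CJ it gave 14 (without AI animal 2, CJ animal 4 or CJ animal 5) to 28 (without CJ animal 3) called, with 4 to 11 higher (11 without AI animal 3 or CJ animal 3) and 10 to 17 lower. There CJ animal 3 met only AI animal 3, so the fits without either overlap in the arrays they leave out. Other settings gave 21 to 32 and 18 to 26 members. The SRSF5 call was lost with arrays centred and scaled (0.83, adjusted p = 0.0839) and with the second spot only (0.94, adjusted p = 0.0631), and its value ran from 0.72 to 1.44 without 1 animal. The SRSF9 call was lost in both comparisons with the mean of its probes.

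With the 4 pool arrays as separate values, 1 member was called, SRSF5 (adjusted p = 0.0109), and 268 probes were called in place of 0; the first spot alone gave 94, the second 2 and a spot r of at least 0.5 gave 3. Probes called in SCNT against AI through CJ numbered 39, and as few as 8 without AI animal 3 or CJ animal 3. Leaving out CJ animal 3 removes arrays of AI animal 3 as well, so these fits are not separate. Probes called in AI against CJ numbered 2074, and between 1286 and 1335 without any 1 of AI animal 2 and the CJ animals 2, 4 and 5. In the IVF-ET loops 0 to 3 probes were called under any setting. The areas of the IVF-ET loops share animals, and linking the areas of an animal left 0 members called there. By replicate number no paired analysis was possible because these numbers only count arrays in accession order.

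Few animals, an unknown number of animals per pool, ratios without signal levels and a dye order that is not stated limit these results. CJ animals are shared by both comparisons against them.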
